A study of Mus musculus with 18 samples.

Results

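The 8 estrogen receptor target genes described here were Greb1, Areg, Rerg, Nrip1, Myb, Cited1, Rasd1 and Ccnd1, taken by name from the 52636 genes of each deposited count table. All 8 were matched by Ensembl identifier, had counts in each of the 18 libraries, and were among the 18298 genes that passed the filter on low counts. The study sorted mouse mammary gland cells by flow cytometry into a mature luminal gate, labelled ML, and a second gate, labelled N, for which the labels give no established cell type. The 3 genotypes were WT, D542G and Y541S, the latter pair carrying the named amino acid change in the receptor encoded by Esr1. Each of the 6 combinations of genotype and gate had 3 libraries, which the series text calls biological replicates. All 6 groups came from mice aged 6 months that carried estradiol (E2) and progesterone (P4) pellets and received giredestrant at 30 mg/kg by mouth daily for 4 days, so every comparison below is between mice given the drug and no untreated group was analysed here. The sources do not say how the alleles were made or whether they were heterozygous, or whether an ML and an N library came from the same mouse.

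Estrogen receptor alpha is a nuclear receptor that binds DNA at estrogen response elements, or through other factors such as AP-1, once estradiol has reshaped its ligand-binding domain, and it then recruits coactivators. Giredestrant is an oral antagonist and degrader of this receptor, and changes in the ligand-binding domain can leave the receptor active without ligand. In the mammary gland the receptor sits in hormone-sensing luminal cells, which pass the signal on to neighbouring cells by secreted factors such as amphiregulin, the product of Areg. The other members work inside the cell. Greb1 and Cited1 encode coactivators of the receptor and Nrip1 (RIP140) a corepressor that is itself a target. Rerg and Rasd1 encode small GTPases of the Ras family, Myb a transcription factor of proliferating progenitors, and Ccnd1 cyclin D1, the partner of Cdk4 and Cdk6 in early cell cycle.

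The sequences just upstream of 4 members that changed between the gates are shown because these genes are known as receptor targets and can be searched for its binding letters. They are the 250 bases before the RefSeq transcription start (GRCm38.p6), 5′ to 3′ on the gene's own strand, with any estrogen response half-site, GGTCA or its reverse complement TGACC, in capitals. They lie at chr12:16800887-16801136 for Greb1, chr16:76373828-76374077 for Nrip1, chr10:21160985-21161234 for Myb and chrX:102252182-102252431 for Cited1, each on the minus strand.
Greb1: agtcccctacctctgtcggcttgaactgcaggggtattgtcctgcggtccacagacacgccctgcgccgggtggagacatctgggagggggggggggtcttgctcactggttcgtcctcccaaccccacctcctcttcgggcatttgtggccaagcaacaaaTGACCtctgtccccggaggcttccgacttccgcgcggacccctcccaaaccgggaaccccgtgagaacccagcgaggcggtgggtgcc
Nrip1: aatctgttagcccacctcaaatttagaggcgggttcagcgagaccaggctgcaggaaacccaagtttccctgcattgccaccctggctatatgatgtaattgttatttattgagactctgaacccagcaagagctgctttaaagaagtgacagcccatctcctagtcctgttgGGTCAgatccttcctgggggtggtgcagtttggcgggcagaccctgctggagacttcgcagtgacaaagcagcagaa
Myb: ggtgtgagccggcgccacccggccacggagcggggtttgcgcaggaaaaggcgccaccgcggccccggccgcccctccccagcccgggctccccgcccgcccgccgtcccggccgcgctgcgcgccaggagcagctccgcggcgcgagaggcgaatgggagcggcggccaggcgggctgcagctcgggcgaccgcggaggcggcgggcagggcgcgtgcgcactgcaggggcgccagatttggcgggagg
Cited1: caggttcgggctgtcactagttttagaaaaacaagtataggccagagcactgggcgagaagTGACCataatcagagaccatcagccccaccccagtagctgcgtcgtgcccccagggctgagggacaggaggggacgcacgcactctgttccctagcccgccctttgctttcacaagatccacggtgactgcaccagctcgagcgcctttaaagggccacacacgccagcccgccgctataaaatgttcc
The Greb1 window holds 1 half-site, with its first base at -88 from the start, Nrip1 holds 1 at -77 and Cited1 holds 1 at -189, while no such letters stand in the Myb window. Greb1 and Cited1 carry it in the TGACC orientation and Nrip1 as GGTCA. Of 32851 promoters of the same kind (250 bases before to 50 after the start), 40.5% held a half-site on either strand, so 1 copy is common. The full palindromic estrogen response element was in 0.0700% of them and in none of the members found in the table. The GC box GGGCGG, searched on both strands, was in 35.7% of promoters. It was found in Myb 3 times, at -182, -158 and -154, and in Cited1 at -93. The Areg promoter (chr5:91139349-91139648, plus strand) held the cyclic AMP response element TGACGTCA at -61, which 1.79% of promoters hold, with GC boxes at -52 and 38 and a half-site at 25. The AP-1 core TGANTCA, held by 7.81% of promoters on either strand, was in none of the 5 members found. The table held entries for 5 of the 8 members, and Rerg, Rasd1 and Ccnd1 had none. It held 2 promoters for Greb1, 2 for Nrip1 and 3 for Cited1. Only the promoter at the GENCODE gene start was searched, so the absence of a motif covers that start alone.

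Libraries held 34797778 to 49507144 counts in genes. The ML label was checked with markers: summed over 7 pan-luminal genes, the ML libraries held 14459 to 28781 CPM (the count scaled to the size of its library), and summed over 10 basal genes 213 to 7389. The N libraries held 7918 to 60791 CPM of the same basal genes, although the labels give mature luminal cells as the source of both gates. Over the 3 genotypes with equal weight, 10 of 10 basal markers were called higher and 7 of 7 pan-luminal markers lower in N. WT N library 3 stood apart. Its pan-luminal sum was 16085 CPM against 1110 and 1509 in the other WT N libraries, its basal sum 7918 against 50406 and 60791, and on the first principal component it lay at -7.61, between the ML libraries (-65.8 to -17.1) and the other N libraries (33.1 to 78.5). Other libraries differed from their group as well. Y541S N library 2 held 18333 CPM of 8 genes listed as luminal progenitor markers, against 208 and 298 in the other Y541S N libraries. Y541S ML library 2 held 14176 against 2175 and 2503. That list includes Csn2, a milk protein gene, and the share of each gene in these sums was not examined. Y541S N library 3 held 13169 CPM of 7 epidermal markers against at most 15.3 in the other Y541S N libraries, and at 78.5 on the first component it lay nearest to WT N libraries 1 and 2, both at 78.1. WT ML libraries 1 and 2 held basal sums of 7389 and 5846 against 308 in WT ML library 3. Hair follicle markers summed to 5620, 1160 and 1.05 CPM in WT ML libraries 1 to 3. Y541S ML library 3 held 3446 CPM of hair follicle markers against 0.00 in the other Y541S ML libraries. It also held 2044 CPM of epidermal markers against 9.22 and 12.7 there. The part of these cell type differences in the results below was not tested. In sorted bulk RNA, fewer cells of a type and less RNA per cell cannot be told apart.

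Between the gates the members split into 2 sets. In the N gate Ccnd1 and Rasd1 were lower in each genotype, and Cited1 was lower in 8 of 9 N libraries than in any ML library. Greb1, Rerg, Nrip1 and Myb were called higher in D542G or Y541S or both, and Areg did not pass the test in any comparison. Changes are log2 fold changes with their standard error from edgeR's quasi-likelihood test on the counts, and a gene is called where the p-value adjusted over all tested genes is under 0.05. In WT, 2 of the 8 members were called, both lower in N, where 3.53% of all tested genes were called. In D542G 6 were called, 4 higher and 2 lower, against 9.2% of all genes, and in Y541S 3 were called, 1 higher and 2 lower, against 6.95%. Over the 3 genotypes with equal weight 7 were called, 4 higher and 3 lower, against 27.4% of all genes. The members' median change in that last comparison was 0.20, beside -0.03 over all genes. These 4 comparisons share libraries and are not independent of each other.

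**Figure D1:**
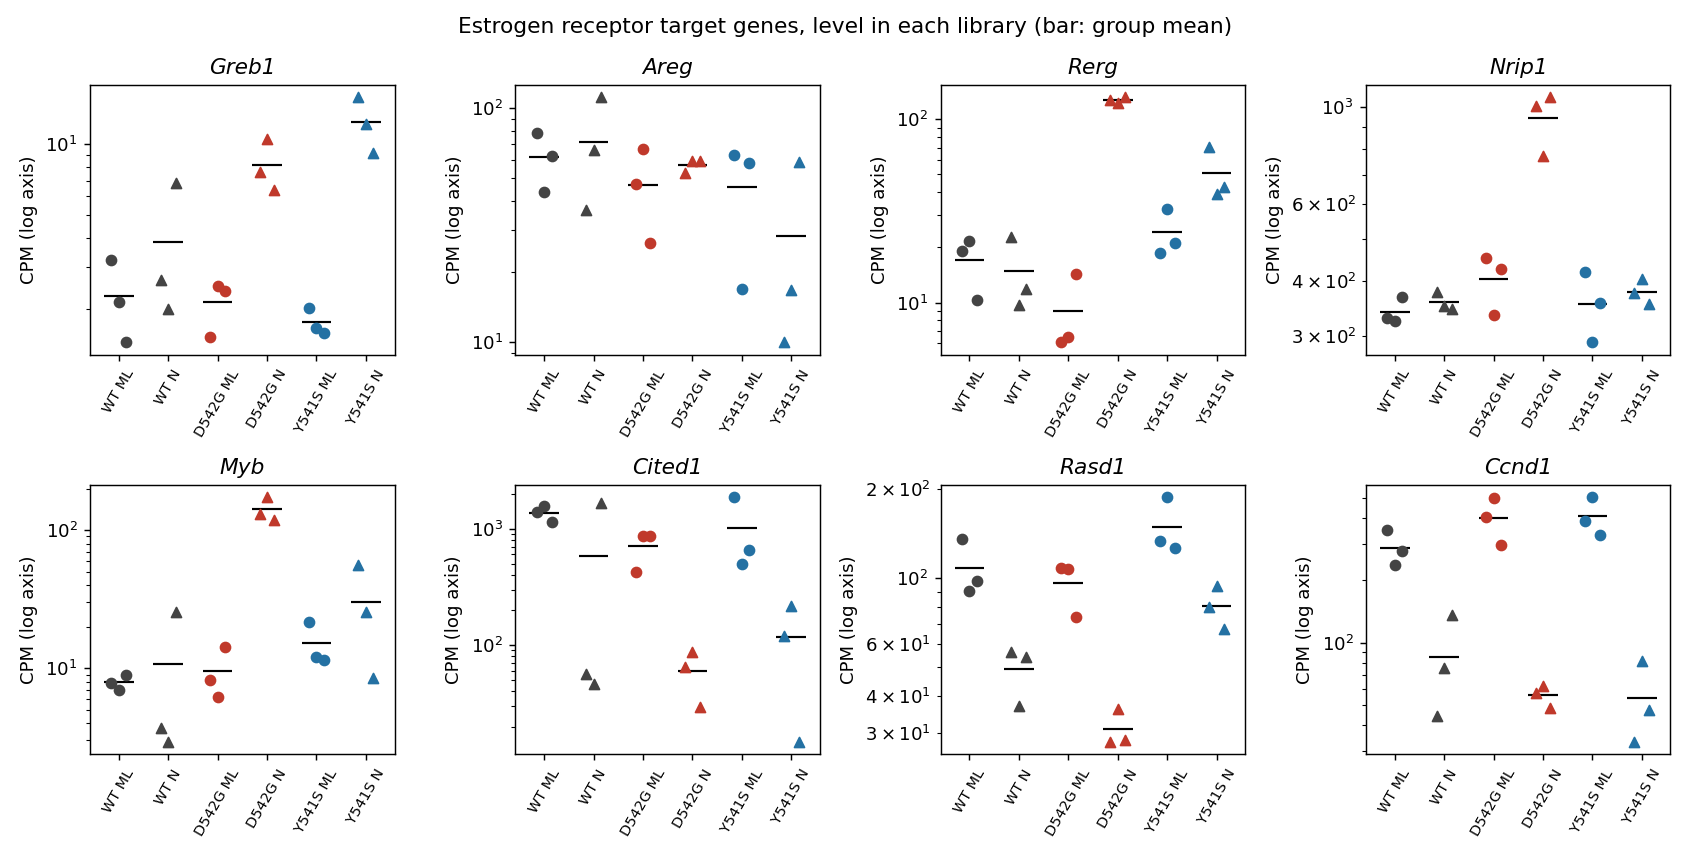
CPM (log axis) of each member in each library, with circles for ML and triangles for N, colours for genotype and a bar for the mean of 3 libraries. The 9 N triangles of Ccnd1 lie below all 9 ML circles, while the Rerg, Nrip1 and Myb triangles of D542G stand above every other library.

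Ccnd1 (cyclin D1; ENSMUSG00000070348, chr7:144929931-144939925, minus strand, GRCm38) had the lowest p of the 8 between the gates over the 3 genotypes. In ML its level was 349, 238 and 277 CPM in WT, 406, 501 and 295 in D542G, and 388, 506 and 332 in Y541S. In N it was 44.4, 75.9 and 136 in WT, 57.4, 62.2 and 48.5 in D542G, and 33.2, 81.7 and 47.2 in Y541S. The highest N library thus lay below the lowest ML library, and the highest of the N values belonged to WT library 3. Ccnd1 fell by 1.75 ± 0.39 in WT (adjusted p = 0.024), by 2.84 ± 0.40 in D542G (0.000927) and by 2.92 ± 0.40 in Y541S (0.000774) on the log2 scale, all from edgeR. Paired by replicate number it was lower in N in 9 of 9 pairs, at -3.55 to -1.03. The WT call was lost when any 1 of 5 of the 6 WT libraries was left out (adjusted p up to 0.106) and in the fit of only the compared groups (0.182). Without WT N library 3 the change was -2.26. Of its exon bases, 23.4% also lie in exons of LTO1, a gene on the other strand. How reads there were assigned is not given in the sources used here.

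Rasd1 (dexamethasone-induced Ras-related GTPase; ENSMUSG00000049892, chr11:59963181-59964944, minus strand) also was lower in N in every genotype. Its ML levels were 136, 90.5 and 97.9 CPM in WT, 108, 107 and 74.1 in D542G, and 133, 188 and 126 in Y541S. Its N levels were 56.4, 37.2 and 54.4 in WT, 28.0, 36.2 and 28.5 in D542G, and 79.8, 94.4 and 67.2 in Y541S. Within each genotype no N library reached an ML library, but Y541S N overlapped with the ML range of the other genotypes. Rasd1 fell by 1.13 ± 0.24 in WT (edgeR adjusted p = 0.0198), by 1.64 ± 0.24 in D542G (0.00113) and by 0.89 ± 0.24 in Y541S (0.0356). The Y541S call was lost when any 1 of 6 libraries was left out and the WT call when any 1 of 3 was left out, with adjusted p up to 0.166 and 0.0943, and the Y541S call held in 4 of the 7 other fits. The WT call was also lost in the fit of only the compared groups (0.173).

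Cited1 (a transcriptional coactivator; ENSMUSG00000051159, chrX:102247381-102252181, minus strand) was the member that WT N library 3 moved most. Its ML levels were 1395, 1574 and 1139 CPM in WT, 422, 861 and 859 in D542G, and 1871, 499 and 656 in Y541S. Its N levels were 56.7, 46.7 and 1659 in WT, 64.4, 86.6 and 29.5 in D542G, and 120, 218 and 14.7 in Y541S. WT N library 3 was at the ML level, and the other 8 N libraries were below every ML library. Over the 3 genotypes Cited1 fell by 2.63 ± 0.67 (edgeR adjusted p = 0.00985), and it was lower in N in 8 of 9 pairs. No single genotype was called, at -1.22 ± 1.11 in WT (edgeR adjusted p = 0.559), -3.57 ± 1.21 in D542G (0.0785) and -3.10 ± 1.18 in Y541S (0.136). Without WT N library 3 the values were -4.73 (0.00602), -3.57 (0.00837) and -3.11 (0.0193), so that it was called in all 3. Cited1 also stands in the list of hormone-sensing markers.

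Greb1 (growth regulation by estrogen in breast cancer; ENSMUSG00000036523, chr12:16670615-16800886, minus strand) was the scarcest member, at 56 to 687 counts per library. Its ML levels were 3.22, 2.13 and 1.44 CPM in WT, 1.52, 2.49 and 2.38 in D542G, and 2.02, 1.65 and 1.58 in Y541S. Its N levels were 2.64, 1.99 and 6.86 in WT, 7.62, 10.5 and 6.36 in D542G, and 15.8, 12.1 and 9.18 in Y541S. All 6 mutant N libraries and WT N library 3 lay above the ML range, and the other WT N libraries lay within it. Greb1 rose by 2.82 ± 0.49 in Y541S (edgeR adjusted p = 0.00329) and by 1.94 ± 0.47 in D542G (0.0202), and stood at 0.76 ± 0.46 in WT (0.355). Without WT N library 3 the WT change was 0.04 (0.974). The D542G call was lost when any 1 of 4 D542G libraries was left out (adjusted p up to 0.0956). Antisense exons with no counts cover 7.7% of its exon bases.

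Rerg (Ras-like, estrogen-regulated, growth-inhibitory; ENSMUSG00000030222, chr6:137054825-137170497, minus strand) stood out in D542G N. Its ML levels were 19.1, 21.8 and 10.3 CPM in WT, 6.07, 6.51 and 14.3 in D542G, and 18.7, 32.5 and 21.2 in Y541S. Its N levels were 22.9, 9.67 and 11.9 in WT, 128, 122 and 132 in D542G, and 70.9, 39.0 and 42.5 in Y541S. The D542G N libraries lay within a 1.08-fold range of each other, above Y541S N, which in turn lay above WT N without overlap. Rerg rose by 3.83 ± 0.45 in D542G (edgeR adjusted p = 0.000293), with values of 1.07 ± 0.41 in Y541S (0.134) and -0.20 ± 0.40 in WT (0.809). The D542G call held in each of 18 fits that left out 1 library and in the 7 other fits.

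Myb (ENSMUSG00000019982, chr10:21124935-21160984, minus strand) ranged from 2.92 to 174 CPM. Its ML levels were 7.79, 7.0 and 8.92 CPM in WT, 8.25, 6.23 and 14.3 in D542G, and 21.8, 12.1 and 11.5 in Y541S. Its N levels were 3.70, 2.92 and 25.4 in WT, 132, 174 and 119 in D542G, and 56.0, 25.5 and 8.48 in Y541S. D542G N stood above all other libraries. In the WT N group, library 3 exceeded each ML library and the other libraries lay below all of them. Myb rose by 3.89 ± 0.80 in D542G (edgeR adjusted p = 0.00831), a call lost only without D542G ML library 2 (0.051), and stood at 0.99 ± 0.72 in Y541S (0.46) and 0.43 ± 0.72 in WT (0.771). Without WT N library 3 the WT value turned to -1.25 (0.169). Antisense exons with no counts cover 6.3% of its exon bases.

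Nrip1 (RIP140; ENSMUSG00000048490, chr16:76287400-76373827, minus strand) had the highest counts of the members that rose, 11593 to 45271 per library. Its ML levels were 329, 324 and 368 CPM in WT, 451, 335 and 427 in D542G, and 419, 290 and 356 in Y541S. Its N levels were 377, 351 and 346 in WT, 1005, 771 and 1051 in D542G, and 375, 405 and 355 in Y541S. Outside D542G N the 15 libraries all lay between 290 and 451 CPM. Nrip1 rose by 1.22 ± 0.18 in D542G (edgeR adjusted p = 0.00112). It stood at 0.07 ± 0.18 in WT (0.851; 95% confidence interval -0.30 to 0.45) and at 0.09 ± 0.18 in Y541S (0.816; -0.28 to 0.47).

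Areg (amphiregulin, the secreted ligand of Egfr; ENSMUSG00000029378, chr5:91139599-91148432, plus strand) ranged from 16.8 to 78.4 CPM in ML (median 58.4) and from 9.99 to 111 in N (median 58.6). The highest library was WT N 3, and the lowest was Y541S N 1. Its change between the gates was 0.22 ± 0.61 in WT, 0.28 ± 0.61 in D542G and -0.69 ± 0.61 in Y541S, with edgeR adjusted p of 0.873, 0.826 and 0.559. The confidence intervals are wide, and that of Y541S, -2.0 to 0.61, includes changes of the size called for Rasd1. Leaving out 1 library gave -0.25 to 0.54 in WT, 0.0 to 0.63 in D542G and -1.75 to -0.28 in Y541S, and the WT value of -0.25 (0.838) was the one without WT N library 3. Areg was higher in N in 4 of 9 pairs.

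**Figure D2:**
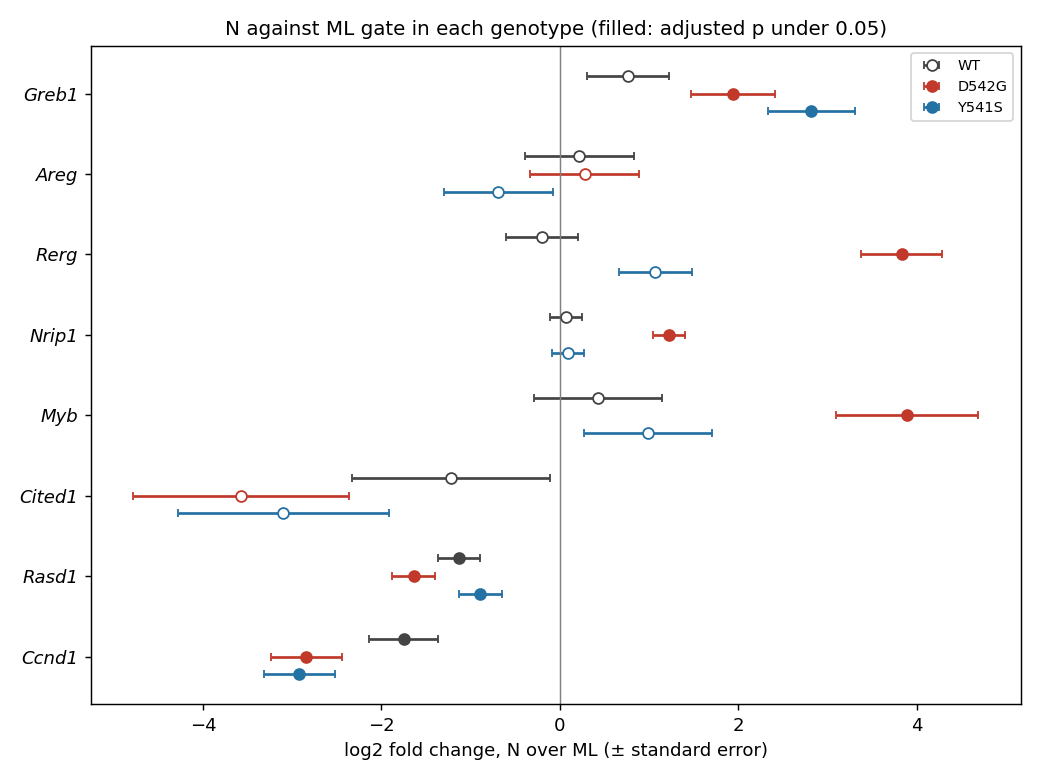
Log2 fold change of N over ML for each member (x axis) in WT, D542G and Y541S, with bars for 1 standard error and filled points for an adjusted p under 0.05. Ccnd1 and Rasd1 lie left of 0 in all 3 genotypes, and Rerg, Nrip1 and Myb are filled to the right of 0 in D542G alone; whether the genotypes differ in these changes is tested separately in the text.

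Per kilobase of exon, which allows levels to be set side by side between genes, Cited1 was the most abundant member in the ML libraries, at 588 ± 285 CPM per kilobase (SD, n = 9). Ccnd1 followed at 77.7 ± 20.0, Rasd1 at 73.2 ± 20.6, Areg at 42.4 ± 16.3 and Nrip1 at 32.0 ± 4.75, and the ranges of 1 SD around the mean overlapped between each of these neighbours from Ccnd1 to Nrip1. Rerg stood at 6.13 ± 3.09, Myb at 1.22 ± 0.544 and Greb1 at 0.214 ± 0.0609. In N, averaged over the 3 genotypes, Nrip1 stood at 48.8 ± 25.9, Areg at 43.1 ± 24.5, Rasd1 at 33.3 ± 14.6, Rerg at 23.5 ± 18.6, Ccnd1 at 13.8 ± 6.49, Myb at 6.81 ± 7.21 and Greb1 at 0.847 ± 0.458, with overlapping ranges of 1 SD between neighbours from Nrip1 to Myb. The order differed by genotype: Nrip1 was at 82.2 in D542G N, but in WT N Areg (58.8) stood above Nrip1 (31.3), and in Y541S N Rasd1 stood above Nrip1 (33.0). Cited1 was left out of this order. Its mean in N was the highest of the members, at 145 ± 302 CPM per kilobase, but its spread was wide. It stood at 335 ± 529 in WT N, 34.3 ± 16.4 in D542G N and 66.9 ± 57.8 in Y541S N. Its mean was thus the highest in WT N and Y541S N, but below Nrip1, Areg (47.1) and Rerg (46.6) in D542G N. WT N library 3 stood at 946, and the other WT N libraries at 32.3 and 26.6. Without division by exon length its median in N was 64.4 CPM, with 1659 in WT library 3. Whether reads in introns were counted is not given, and if they were, these levels per kilobase are too high for genes with long introns.

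Within the ML gate no member was called between genotypes. None of the 8 passed the test in D542G against WT, Y541S against WT or D542G against Y541S by edgeR, where 0% of all tested genes were called in each. At an unadjusted p under 0.05 there were 1, 0 and 2 members, where 6.17%, 5.52% and 4.84% of all tested genes were, and DESeq2 and limma-voom also called 0 in each. The smallest unadjusted p was that of Rerg, lower in D542G than in Y541S at -1.43 ± 0.41 (edgeR adjusted p = 0.968), with ML levels that did not overlap. The ML libraries also did not overlap for Rasd1, lower in D542G than in Y541S, for Cited1, lower in D542G than in WT, and for Myb, higher in Y541S than in WT. How many of all tested genes show such a gap was not counted, here or elsewhere, so these gaps are a description only. Nrip1 had the narrowest intervals, -0.13 to 0.63 for D542G against WT and -0.32 to 0.44 for Y541S against WT.

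Within the N gate 3 members were called in D542G against WT, all higher, where 2.43% of all tested genes were called. Myb rose by 3.73 ± 0.80 (edgeR adjusted p = 0.0258), Rerg by 3.10 ± 0.44 (0.0035) and Nrip1 by 1.40 ± 0.18 (0.00202), and in each of these genes the 3 D542G libraries lay above the 3 WT libraries. Mean levels in D542G N and WT N were 142 ± 28.5 and 10.7 ± 12.7 CPM for Myb, 127 ± 5.02 and 14.8 ± 7.08 for Rerg, and 942 ± 150 and 358 ± 16.3 for Nrip1 (SD, n = 3). The Myb call was lost when any 1 of the 3 D542G N libraries, or WT N library 1 or 2, was left out (adjusted p up to 0.0975). It was also lost in the fit of only the compared groups (0.115), and without WT N library 3 it was 5.42 (0.00171). Rerg and Nrip1 kept their call in each of those fits. Greb1 stood at 1.09 ± 0.46 (0.224), and without WT N library 3 at 1.82 (0.024). Cited1 stood at -3.29 ± 1.19 (0.159), and without that library at 0.22 (0.917). The basal markers summed to 16992 to 18508 CPM in D542G N, against 50406, 60791 and 7918 in WT N libraries 1 to 3. The pan-luminal ones summed to 3978 to 5427, against 1110, 1509 and 16085. Hormone-sensing markers, whose list includes Cited1 and Areg, summed to 2044 to 2210 in D542G N and to 876, 862 and 6501 in WT N. Epidermal markers summed to 21.8 to 870 in D542G N and to 4225, 11101 and 523 in WT N. The part of any of these markers in the differences was not tested.

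In Y541S against WT within N, edgeR called 0 members, where 1.14% of all tested genes were called. At an unadjusted p under 0.05 there were 4, where 14.3% of all genes were, and DESeq2 called 2 and limma-voom 3. Rerg stood at 1.78 ± 0.42 (edgeR adjusted p = 0.0537), Greb1 at 1.69 ± 0.47 (0.105), Rasd1 at 0.71 ± 0.24 (0.178) and Areg at -1.33 ± 0.62 (0.347). Rerg was called without any 1 of WT ML library 3, D542G ML library 3 and Y541S N library 3, with an adjusted p down to 0.0363. The Rerg, Greb1 and Rasd1 libraries of Y541S N all lay above those of WT N. Without WT N library 3 Greb1 stood at 2.42 (0.0142) and Myb at 3.18 (0.0209), both called, and without Y541S N library 3 Areg was called at -2.41 (0.0446). Cited1 stood at -2.32 ± 1.15 (0.375) and, without WT N library 3, at 1.18 (0.474). Nrip1 stood at 0.08 ± 0.18, with an interval of -0.30 to 0.46. Of the markers, 3 of 10 basal genes (list median 2.46) and 1 of 5 pericyte genes (0.82) were called higher in Y541S N than in WT N. The basal sum, however, was 20528 to 43563 CPM in Y541S N. That was below WT N libraries 1 and 2, at 50406 and 60791, and above WT N library 3, at 7918. The part of the markers in these differences was not tested.

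D542G and Y541S were compared directly in N, where 2 members were called and 1.43% of all tested genes. Nrip1 was higher in D542G by 1.32 ± 0.18 (edgeR adjusted p = 0.00224) and Rasd1 was lower by 1.38 ± 0.24 (0.00995), each with no overlap between the libraries. The Rasd1 call was lost without D542G N library 1 or 3 or Y541S N library 2 (adjusted p up to 0.0798). Myb at 2.24 ± 0.75 (0.171) and Rerg at 1.32 ± 0.41 (0.135) were also higher in all 3 D542G libraries than in any Y541S library, but were not called. Without WT N library 3 Myb was called (0.0365). DESeq2 and limma-voom each called 4 members, Myb and Rerg among them. Greb1, at -0.60 ± 0.46 (0.604), was the one member of the raised set whose mean was higher in Y541S N (12.4 ± 3.32 CPM) than in D542G N (8.16 ± 2.13), with overlapping libraries. In the same comparison 3 of 10 basal markers (list median -3.05), 1 of 5 pericyte markers (-1.39) and 1 of 7 pan-luminal markers (0.61) were called lower in D542G N, and their part was not tested.

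**Figure D3:**
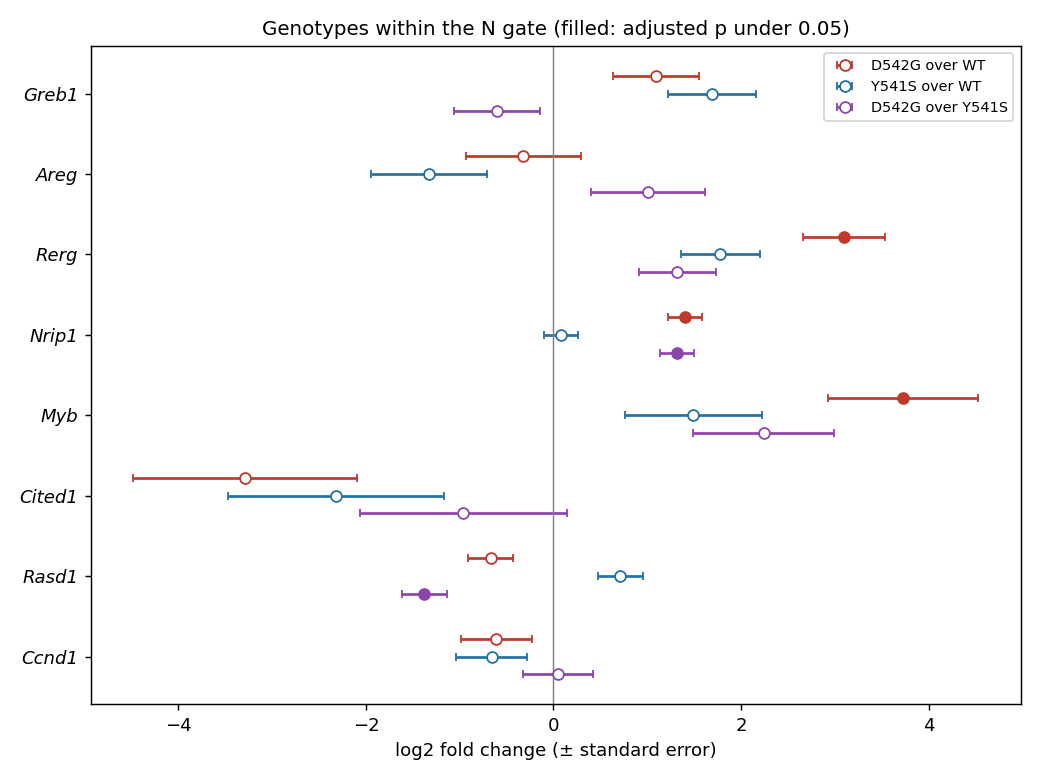
Log2 fold change of each member (x axis) between genotypes within the N gate, with bars for 1 standard error and filled points for an adjusted p under 0.05. Rerg, Nrip1 and Myb are filled for D542G over WT, Nrip1 and Rasd1 for D542G over Y541S, and no point is filled for Y541S over WT.

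Whether the change between the gates itself differed between genotypes was tested as an interaction. Rerg alone of the 8 was called in D542G against WT, where 0.109% of all tested genes were called: its change between the gates was larger in D542G by 4.03 ± 0.59 (edgeR adjusted p = 0.0174). With the replicate number as a block the difference was 4.17 (adjusted p = 0.0503), which missed the threshold. It was also lost without D542G ML library 1 or 2 or D542G N library 1 or 3 (adjusted p up to 0.0787). The rise of Myb differed by 3.46 ± 1.04 (0.25) and that of Nrip1 by 1.15 ± 0.25 (0.118), so for these a rise called in D542G and not in WT was not shown to differ between those genotypes by edgeR. DESeq2 and limma-voom called both. Without WT N library 3 Myb was called at 5.14 (0.0145). Y541S against WT had 0 members called by edgeR and 0% of all genes, with 3 members at an unadjusted p under 0.05 beside 8.41% of all genes, 0 called by DESeq2 and 1 by limma-voom, Greb1. Greb1 stood there at 2.06 ± 0.65 (0.425), and without WT N library 3 and Y541S N library 3 at 2.96 (0.0178). D542G against Y541S also had 0 members called, where 0.109% of all genes were, with 4 at an unadjusted p under 0.05 beside 8.62% of all genes, 2 called by DESeq2 and 3 by limma-voom. Rerg stood there at 2.75 ± 0.58 (0.116), and was called without D542G ML library 3 (0.0449), and Nrip1 at 1.13 ± 0.25 (0.131). The gate change of Cited1 turned with WT N library 3. It stood at -2.35 ± 1.56 (0.629) for D542G against WT and -1.88 ± 1.56 (0.809) for Y541S against WT, and without that library at 1.16 (0.676) and 1.62 (0.53).

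The receptor's own transcript did not follow one set of members. Esr1 was at 118, 187 and 455 CPM in WT ML, 161, 164 and 216 in D542G ML, and 271, 49.4 and 112 in Y541S ML. In N it was at 10.7, 14.9 and 307 in WT, 313, 250 and 237 in D542G, and 112, 67.5 and 49.9 in Y541S. WT N libraries 1 and 2 thus held the lowest levels and library 3 was near D542G N. No comparison of Esr1 was called: between the gates it stood at -0.51 ± 0.55 over the 3 genotypes (edgeR adjusted p = 0.529), and in N at 1.27 ± 0.96 for D542G against WT (0.521). Pgr, the progesterone receptor and a classical target, was at 24.2, 27.1 and 19.4 CPM in D542G N. It was at 11.5, 6.64 and 3.50 in Y541S N and at 0.201, 1.94 and 24.3 in WT N. Pgr was not called either (1.42 ± 1.05 for D542G against WT in N, edgeR adjusted p = 0.509). These changes of Esr1 and Pgr include WT N library 3, and none without it are given here. Across the 18 libraries, which share the gates and cell type makeup, Pearson's r of log2(CPM + 1) with Esr1 was 0.536 for Myb, 0.472 for Cited1, 0.385 for Nrip1, 0.297 for Ccnd1, 0.271 for Areg, 0.105 for Rerg, 0.0756 for Greb1 and -0.0118 for Rasd1. Among the members themselves it was 0.819 for Rerg with Myb, 0.811 for Nrip1 with Myb, 0.829 for Cited1 with Ccnd1 and -0.761 for Greb1 with Ccnd1.

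**Figure D4:**
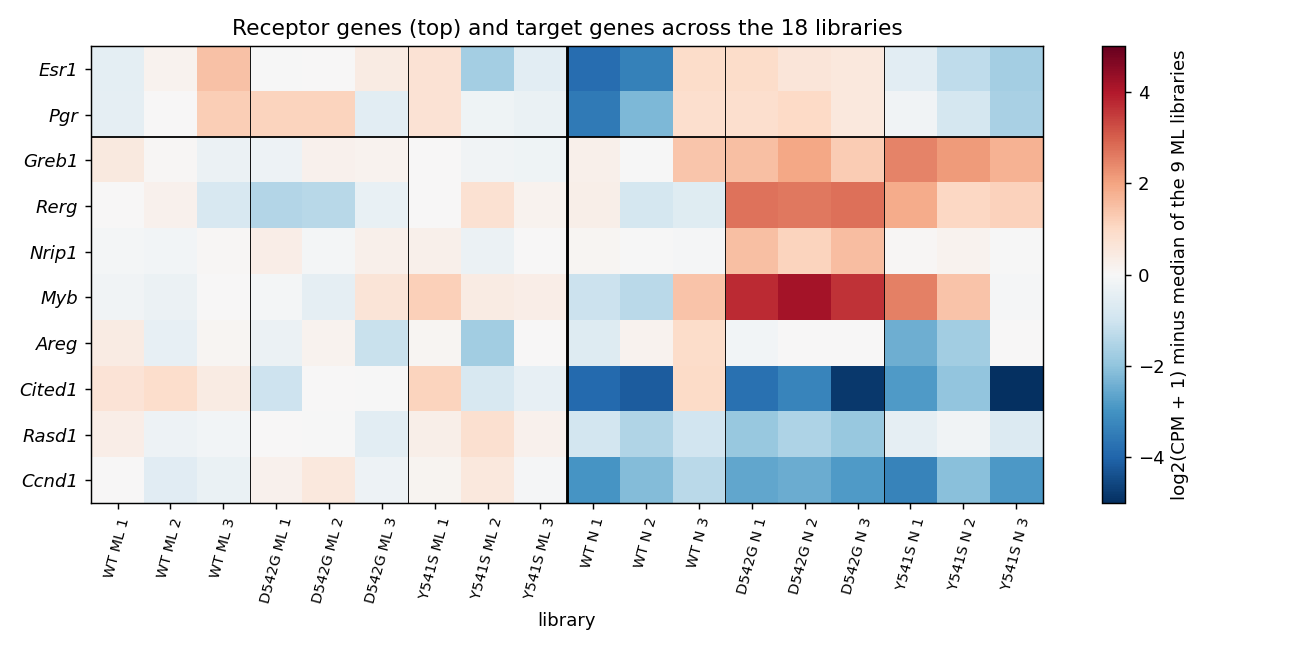
Log2(CPM + 1) of Esr1, Pgr and the 8 members in each of the 18 libraries, less the median of the 9 ML libraries (red higher, blue lower). Ccnd1 and Rasd1 are below the ML median in all 9 N columns, and WT N 3 is above it for Cited1, Esr1 and Myb where the other WT N columns are below.

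Genes around the members were counted from lists, over the 3 genotypes between the gates. In that comparison 13.8% of all tested genes were called higher and 13.6% lower, and these shares stand beside each list count of it below. Of 36 other estrogen-responsive genes 33 were tested, 7 were called higher and 12 lower in N, with a median of -0.37 beside -0.03 over all genes. Tff1, Tff3 and Slc7a5 were listed at 0. Ccn5 fell by 4.0 ± 0.36 (edgeR adjusted p = 5.41e-06) and Ltf, lactoferrin, by 3.81 ± 0.37 (8.29e-06), while Cxcl12, a chemokine, rose by 4.16 ± 0.41 (1.01e-05) and Myc by 1.82 ± 0.19 (1.61e-05). Pgr stood at -0.66 ± 0.60 (0.449). Of 22 tested genes for receptors, pioneer factors and coregulators 2 were higher and 2 lower, with a median of -0.06. Gata3, a luminal pioneer factor, fell by 1.26 ± 0.22 (0.00102) and Greb1l by 1.65 ± 0.53 (0.0312), whereas Tfap2c rose by 1.21 ± 0.31 (0.00963) and Esr2, encoding estrogen receptor beta, by 1.59 ± 0.49 (0.0262).

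Among 14 genes of and around the epidermal growth factor family, which are ligands such as Areg's relatives, receptors, and the sheddase Adam17 with its regulators Rhbdf1 and Rhbdf2, 5 were higher and 4 lower in N (median 0.01 over the 13 with a count in every group). The ligand Nrg1 rose by 2.11 ± 0.25 (edgeR adjusted p = 4.43e-05). The receptors Erbb4 and Erbb3 fell by 3.34 ± 0.40 (4.7e-05) and 1.45 ± 0.19 (7.83e-05), and the ligand Btc fell by 2.15 ± 0.32 (0.000238). Of 14 genes listed around Ccnd1, which are D cyclins, their partners and other cell cycle genes, 3 were higher and 3 lower (median -0.03). Rb1, the substrate of Cdk4 and Cdk6, fell by 1.36 ± 0.19 (0.000133), as did the inhibitor Cdkn2c, by 1.09 ± 0.19 (0.000865). The inhibitors Cdkn2d and Cdkn1a rose by 0.94 ± 0.19 (0.00201) and 1.72 ± 0.39 (0.00486). Of 12 tested relatives of the members 2 were higher and 3 lower (median 0.11): Cited4 fell by 2.20 ± 0.44 (0.00212), Ccnd3 by 0.66 ± 0.16 (0.00643) and Greb1l as above, and Ccnd2 rose by 2.93 ± 0.79 (0.013) and Rasd2 by 1.40 ± 0.44 (0.0279). Ccnd1 and Ccnd2 thus moved in opposite directions between the gates.

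Rasd1 is also induced by glucocorticoids. Of 11 genes known for that response 6 were higher and 0 lower in N, with a median of 0.97, beside 13.8% and 13.6% of all tested genes. Mt1 and Mt2, metallothioneins, rose by 3.26 ± 0.34 (edgeR adjusted p = 1.5e-05) and 3.76 ± 0.44 (3.68e-05), Sgk1 by 1.0 ± 0.16 (0.000446) and Errfi1 by 0.97 ± 0.16 (0.000567). Rasd1 moved the other way. Fkbp5 and Tsc22d3, which are among the best known genes of that response, were not called at -0.34 ± 0.39 (0.559) and -0.64 ± 0.35 (0.199). These 2 were named after their values were seen.

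Between genotypes within N few of these list genes were called. In D542G against WT Ltf fell by 2.66 ± 0.61 (edgeR adjusted p = 0.0349) and Cdkn2c by 2.03 ± 0.34 (0.00786), and Sgk1 rose by 1.56 ± 0.28 (0.0113) and Errfi1 by 1.11 ± 0.28 (0.0498). In Y541S against WT Igfbp5 rose by 2.20 ± 0.50 (0.0497). In D542G against Y541S Elovl5 was lower by -1.91 ± 0.31 (0.00833), Cdkn2c by -1.47 ± 0.33 (0.0418), and Sgk1 was higher by 1.52 ± 0.28 (0.0145).

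The genes whose pattern over the 18 libraries was most like each member were found by Pearson's r of log2(CPM + 1) among 9662 tested genes of moderate or higher level. They were Frmpd4 (0.955), Ntf5 and Bag3 for Greb1, Lamb1 (0.925), Pde4b and Aaed1 for Rerg, and Espn (0.917), Dsc2 and Abhd14a for Myb. Nrip1 was most like En2 (0.950), Tcf3 and Tgfb1, and Areg was most like Mrps26 (0.873), Pak6 and Mgst3. Cited1 was most like Dnajc12 (0.976), Nxf7 and Apof, Rasd1 like Paqr6 (0.939), Celf2 and Enpp3, and Ccnd1 like Slc9a3r1 (0.974), Clu and Mlph. No 2 members shared any of their 3 nearest genes, but with 3 taken from 9662 this says little about how alike the members are.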

How the data were processed

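RNA of 18 sorted mouse mammary libraries (3 genotypes by 2 gates, 3 each) was sequenced from Nextera XT libraries, per the labels' protocols. The authors deposited, per the file headers, counts, gene widths and RPKM values for 52636 genes per library. The genome build was GRCm38, per the submitters' processing notes, and the sources used here do not give the aligner, counter, annotation, strand setting or treatment of introns and overlapping genes. The deposited width equals the whole gene span for 85.6% of genes, so the deposited RPKM was not used. Of the identifiers 99.7% matched GENCODE M21, which gave symbols, coordinates and exon lengths.

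The deposited counts (34797778 to 49507144 per library) went into edgeR 4.0.16 under R 4.3.3. The filter was filterByExpr (minimum count 10, minimum total 15), libraries were scaled by TMM, and 1 quasi-likelihood model of 6 group means (12 residual degrees of freedom) gave all contrasts. Benjamini-Hochberg adjustment ran over the 18298 genes tested. The p-values rest on the spread between these libraries within groups, estimated over the 6 groups together and without pairing. CPM uses TMM-scaled totals. Scripts were tested on simulated data. Alternatives were DESeq2 1.42.0 (its size factors and its Wald test), limma 3.58.1 (voom with quality weights), no filter, only the compared groups, a replicate block and leaving out each library. Leaving out WT N library 3 and Y541S N library 3 together was chosen after seeing the data.

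Same-numbered ML and N libraries of a genotype deviated together (9 pairs, r of 0.168 to 0.556 over 10000 genes). Other-numbered ones of a genotype stood at -0.456 to 0.193. These 2 ranges overlap, with WT ML 1 and N 2 at 0.193 and the same-numbered WT pair 2 at 0.168. Pairing by number within a genotype was therefore an assumption, and the main model holds no block for it. Across genotypes r for the same number was -0.543 to 0.298, which overlaps with the 9 pairs, and no pairing was taken there. The 8 members are named in every comparison, and of each list up to 4 genes with the smallest p between the gates, plus Esr1 and Pgr. Other list genes are named only where called within N or where the text says so. List medians use genes with a count in every group, and some genes stand in more than 1 list. The members and lists were chosen with earlier results of these data known.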

Additional observations from a re-analysis of the deposited data

Results flagged for a closer look

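The change of Rerg between the N and ML gates differed between D542G and WT: it was larger in D542G by 4.03 on the log2 scale (edgeR interaction, adjusted p = 0.0174), with Rerg higher in N in 3 of 3 D542G pairs, by 3.20 to 4.40, and at 0.26, -1.17 and 0.21 in the 3 WT pairs. With the replicate number as a block it was 4.17 (adjusted p = 0.0503). Leaving out D542G ML library 1 or 2 or D542G N library 1 or 3 also lost the call (adjusted p up to 0.0787).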

How the results depend on the processing

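Over 25 other settings no value of a member reversed a called direction, and of 2592 alternative values of single members 2500 kept their side of the threshold, 38 lost it and 54 gained it. The 7 calls over the 3 genotypes stood in each of 18 fits without 1 library, and the 0 calls within ML in each alternative. Other counts of members called moved. For WT between the gates the count of 2 became 0 with only the compared groups, and 0 to 3 without 1 library. For D542G it was 6, and 4 to 7 without 1 library. For Y541S it was 3, became 5 with limma-voom, and was 2 to 4 without 1 library. Within N, D542G against WT had 3, 4 with DESeq2's Wald test, limma-voom or without both WT N library 3 and Y541S N library 3, 2 to 4 without 1 library, and 2 using only the compared groups. Y541S against WT had 0, 2 with DESeq2's Wald test, 3 with limma-voom, 3 without both of those libraries, and 0 to 2 without 1 library. D542G against Y541S had 2, 4 with DESeq2's Wald test, 4 with limma-voom, and 1 to 3 without 1 library. For the difference in gate change, D542G against WT had 1, 3 with DESeq2's Wald test, 3 with limma-voom, 0 with the replicate block, 2 without both of those libraries, and 0 to 2 without 1 library. Y541S against WT had 0, 1 with limma-voom and 2 without both of those libraries. D542G against Y541S had 0, 2 with DESeq2's Wald test, 3 with limma-voom, and 0 to 1 without 1 library. The cause was not tested. The replicate block, which pairs ML and N libraries by number within a genotype, changed no other call of a member. The fit of only the compared groups gives no separate value over the 3 genotypes, which uses all groups. With 3 libraries a group, Cited1, Myb, Areg and Esr1 have wide intervals, and Greb1 rests on as few as 56 counts.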
